A study of Homo sapiens with 12 samples.

Results

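The 7 genes described here belong to the liver X receptor (LXR) pathway, the sterol-sensing system that drives cells to export cholesterol. They were chosen by name: the receptor genes NR1H3 (LXRα) and NR1H2 (LXRβ), the cholesterol exporters ABCA1 and ABCG1, the lipoprotein gene APOE, the ubiquitin ligase gene MYLIP and the phospholipid acyltransferase gene LPCAT3. The choice was made with earlier results of these data known. All 7 were found among the 60617 genes of the count table, and all 7 passed the filter on low counts that left 20360 genes for testing.

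LXRs are nuclear receptors that bind oxysterols, oxidised forms of cholesterol, and act on target genes as partners of a retinoid X receptor (RXR). At a target gene the pair sits on a direct repeat of a short sequence, holds corepressors when no ligand is bound and recruits coactivators when a ligand binds. In steroid-making adrenal cells, cholesterol is the raw material of hormone synthesis, so export through ABCA1 and ABCG1 draws on the same pool that the mitochondria use.

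Polyadenylated RNA was sequenced from NCI-H295R, an established human adrenocortical carcinoma line that makes steroid hormones, in 4 groups of 3 biological replicates. Baseline cells were kept in the vehicle DMSO for 96 h. EPZ-6438, an inhibitor of the histone methyltransferase EZH2, was given at 62 µM (group EZH2i), and PRI-724, which blocks the pairing of the coactivator CBP with β-catenin, at 26 µM (group CBPi), each over 96 h. Forskolin, an activator of adenylyl cyclase, was given at 10 µM (group FSK) over the last 48 h after 48 h of vehicle, a shorter treatment than with the inhibitors. The labels name no allele, transgene or edit in any group. All cells are of 1 line, and each inhibitor was given at 1 dose, which the labels describe as its IC50.

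Library totals were 20.6 to 31.5 megacounts. Replicates were compared by a chi-square per degree of freedom, where 1 would be counting noise alone. PRI-724 replicate 2 stood apart from its group (13.2 and 12.1 in its pairs, against 2.56 to 6.68 in the other 10 pairs), so values against baseline without it are given for the 7 genes and as counts for the pathway lists. All calls of the 7 genes in the 3 comparisons with PRI-724 were the same without it. Mitochondrially encoded genes took 2.37% to 3.22% of counts at baseline, 3.27% to 4.404% with EPZ-6438, 3.58% to 4.81% with PRI-724 and 2.64% to 3.22% with forskolin, so both inhibitors lay wholly above baseline. The identity of the cells was checked on 8 adrenocortical markers, whose summed level was 1980 to 2050 CPM (counts scaled to library size and by TMM, the trimmed mean of M values) at baseline, 605 to 632 CPM with EPZ-6438, 580 to 651 CPM with PRI-724 and 3890 to 4090 CPM with forskolin. The sum of 8 macrophage markers was 1.47 to 2.77 CPM over all libraries, with AIF1 and TYROBP at 0 counts in all 12 libraries and PTPRC at 0 in all but 1 library. The sum of 8 fibroblast markers was 39.2 to 41.5 CPM at baseline, 42.3 to 49 with EPZ-6438, 15 to 18.9 with PRI-724 and 17.5 to 19.1 with forskolin. For 6 endothelial markers it was 0.957 to 1.55 CPM at baseline, 3.11 to 4.47 with EPZ-6438, 1.5 to 1.77 with PRI-724 and 1.08 to 1.53 with forskolin, with CDH5 at 0 in the PRI-724 and forskolin libraries. For 6 hepatocyte markers it was 1.29 to 2.73 CPM over all libraries, with TTR and FGB at 0. Some of these sums hold markers that moved in opposite directions. With forskolin the fibroblast markers LUM and DCN were higher than at baseline, and COL1A1, COL1A2, COL3A1 and THY1 lower. With EPZ-6438 THY1 was higher, and DCN, COL1A2 and COL3A1 lower. Among endothelial markers, KDR was at 2.28 to 3.34 CPM with EPZ-6438 and 0.221 to 0.638 at baseline. With forskolin VWF was higher than at baseline, and TEK and KDR lower. EMCN was higher with PRI-724. The hepatocyte marker HNF4A was higher with EPZ-6438, PRI-724 and forskolin (log2 fold changes 2.70, 2.97 and 2.25). APOB was lower with EPZ-6438 (-1.40) and PRI-724 (-1.63). The macrophage marker CD68 was higher with all 3 treatments (1.38, 1.95 and 2.67), and the other macrophage markers tested did not pass. At baseline HNF4A had 2, 1 and 3 counts, and CD68 4, 3.5 and 2. The part of the mitochondrial share or of any of these markers in the results below was not tested.

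The promoters shown are those of ABCA1 and MYLIP, which both rose with PRI-724. NR1H2, which rose less (log2 fold change 0.30), was searched, but its sequence is not shown. RefSeq promoter windows on GRCh38.p14 (250 bases before to 50 after a start) were available for 6 of the 7 genes, 11 windows in all, and ABCG1 is named only. The windows were searched on both strands for the LXR repeat, which is AGGTCA, then NNNN, then AGGTCA, with up to 3 mismatches in its 12 fixed bases. ABCA1 was the only gene of the 6 with a match. It reads AGGTTACTATCGGTCA on the reverse strand of the window, with 2 mismatches, and lies at chr9:104928209-104928224, -69 to -54 from the RefSeq start. A match with up to 3 mismatches is in 18.6% of all 35116 windows, and one with up to 2 mismatches in 2.34%. GENCODE 29 places the outer end of ABCA1 at 104928237, so the repeat lies within the annotated span of the gene. The sequences below are the 250 bases before each RefSeq start, 5′ to 3′ on the strand of the gene, with the repeat in capitals. They span chr9:104928156-104928405 (minus strand) for ABCA1 and chr6:16128836-16129085 (plus strand) for MYLIP.
ABCA1: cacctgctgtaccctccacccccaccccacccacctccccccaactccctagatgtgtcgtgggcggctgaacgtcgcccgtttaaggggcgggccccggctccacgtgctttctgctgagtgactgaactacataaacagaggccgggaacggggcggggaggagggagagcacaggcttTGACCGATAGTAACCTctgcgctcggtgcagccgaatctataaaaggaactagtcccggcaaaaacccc
MYLIP: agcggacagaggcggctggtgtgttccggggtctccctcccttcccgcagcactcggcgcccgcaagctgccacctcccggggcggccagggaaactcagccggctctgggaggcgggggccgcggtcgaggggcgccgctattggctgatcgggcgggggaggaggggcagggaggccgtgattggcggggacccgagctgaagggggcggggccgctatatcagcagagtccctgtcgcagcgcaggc

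A search for AGGTCA alone (13.8% of all windows) found it in NR1H3, at -140 to -135 of 1 of its 4 windows. The cAMP response element TGACGTCA (1.85% of windows) was in none of the 11 windows, and its shorter form TGACG (24.6%), which overlaps the full element, was in NR1H2 at -33 to -29 and at 2 to 6. The SF-1 site AAGGTCA (3.92%), which contains AGGTCA, and the sterol element TCACNCCAC (1.13%) were in none of the 11. These are matches of letters and were not tested as binding sites.

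Against baseline, PRI-724 raised 4 of the 7 genes and lowered 1, EPZ-6438 raised 1 and lowered 3, and forskolin raised 1 and lowered 3 (quasi-likelihood test of edgeR, p-values adjusted by Benjamini-Hochberg over all genes tested, adjusted p under 0.05). With PRI-724, 58.9% of all 20360 genes passed, 29.8% higher and 29% lower. With EPZ-6438 57.8% passed, 29.5% higher and 28.3% lower, and with forskolin 50.6% passed, 25.5% higher and 25.1% lower. The 3 libraries of a treatment did not overlap the baseline libraries for 5 of the 7 genes with PRI-724 (62.1% of all genes), 3 with EPZ-6438 (65.9%) and 4 with forskolin (57.5%). These counts are close to the background, and the results below concern which genes moved, which way and how far. The 3 comparisons share the baseline libraries. The median log2 fold change of the 7 was 0.30 with PRI-724, -0.18 with EPZ-6438 and -0.07 with forskolin, against 0.01, 0.02 and 0.01 for all genes tested. Since the 7 genes were chosen with earlier results of these data known, these medians are a description. In bulk RNA, a change in the share of cells that express a gene and a change in RNA per cell cannot be told apart.

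**Figure D1:**
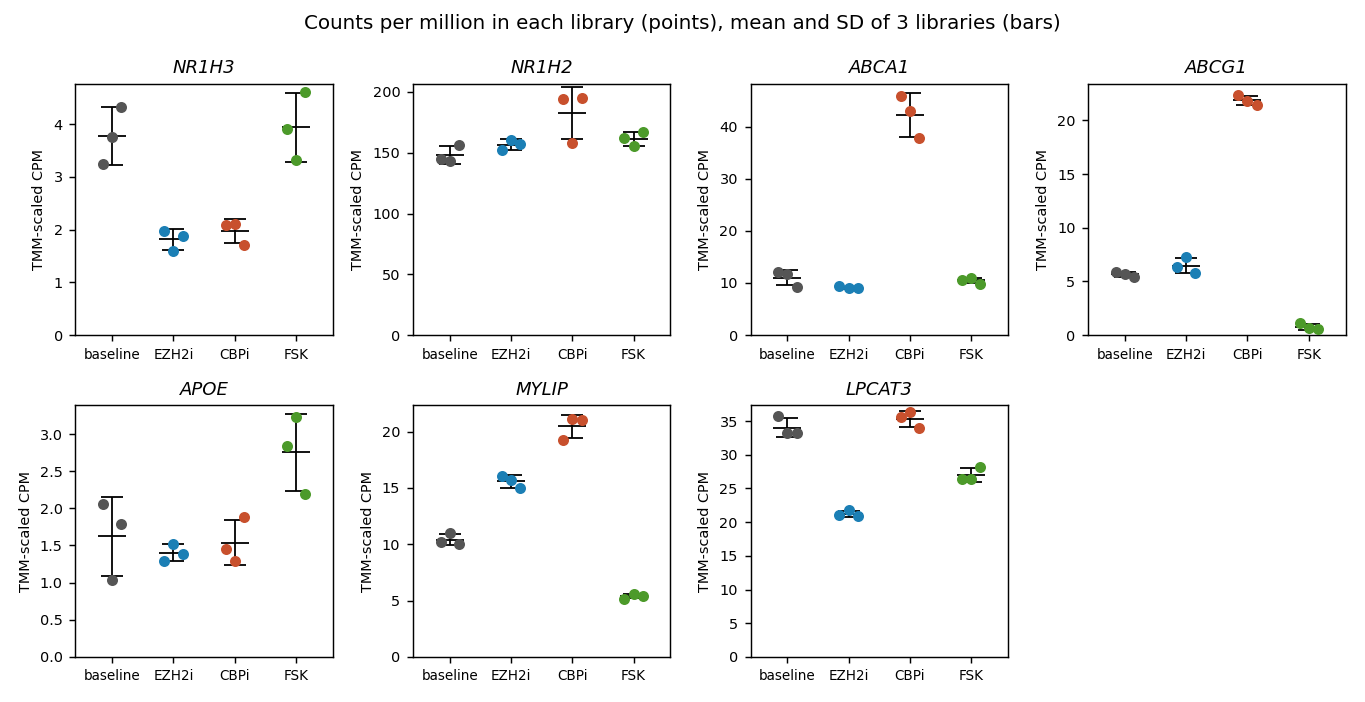
Level of each of the 7 genes in TMM-scaled CPM (vertical axes, linear from 0) in the 3 libraries of each group (points), with mean and SD (bars). ABCA1 and ABCG1 stand highest with PRI-724, ABCG1 and MYLIP lowest with forskolin, and NR1H3 is lower with both inhibitors.

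Levels can be compared between genes only per length, in CPM divided by the gene length in kilobases that the authors deposited. On that scale NR1H2 was the most abundant of the 7 at baseline (27.7 ± 1.4 CPM per kb, SD, n = 3), followed by LPCAT3 (7.26 ± 0.31) and MYLIP (3.39 ± 0.16). ABCA1 (0.977 ± 0.13), ABCG1 (0.924 ± 0.039), NR1H3 (0.832 ± 0.12) and APOE (0.754 ± 0.25) came last, and the order of these 4 is within their spread. With PRI-724 the exporters left that low group, at 3.75 ± 0.37 CPM per kb for ABCA1 and 3.57 ± 0.072 for ABCG1, while MYLIP reached 6.67 ± 0.34. The length of NR1H2 is 5340 bases in the deposited table and 3753 bases in GENCODE 29, and with the shorter length its baseline level is 39.5 CPM per kb.

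NR1H3, the gene of LXRα (GENCODE 29 on hg38, chr11:47248300-47269032, plus strand), fell with both inhibitors and not with forskolin. Its CPM in the 3 libraries were 3.24, 3.75 and 4.33 at baseline, 1.98, 1.59 and 1.89 with EPZ-6438, 2.08, 2.11 and 1.71 with PRI-724 and 3.90, 3.31 and 4.62 with forskolin. Every library of either inhibitor lay below every baseline and forskolin library. The fall was 2.07-fold with EPZ-6438 (log2 fold change -1.05 ± 0.16 SE, adjusted p = 1.45e-05) and 1.93-fold with PRI-724 (-0.95 ± 0.17, adjusted p = 6.64e-05, and -1.02 without PRI-724 replicate 2). With forskolin the difference from baseline was 0.06 ± 0.15 (adjusted p = 0.765), and between the 2 inhibitors it was -0.10 ± 0.18 (adjusted p = 0.696). These values rest on 43 to 103 counts per library. The mitochondrial share split the libraries of the inhibitors from those of baseline in the same way, and its part in the fall was not tested. Of its annotated exon bases 4.2% are shared with ACP2 on the opposite strand, a gene at 79.4 ± 1.4 CPM at baseline, 78 ± 2.8 with EPZ-6438, 85.9 ± 6.6 with PRI-724 and 95.9 ± 5.3 with forskolin.

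NR1H2, the gene of LXRβ (chr19:50329653-50382982, plus strand), was the main LXR transcript in every library. Its CPM were 145, 143 and 157 at baseline, 152, 161 and 158 with EPZ-6438, 194, 158 and 195 with PRI-724 and 163, 155 and 167 with forskolin. Only the PRI-724 group lay wholly above baseline, and its replicate 2 was level with the EPZ-6438 and forskolin libraries. The rise with PRI-724 was small, 1.23-fold (log2 fold change 0.30 ± 0.06 SE, adjusted p = 4.86e-04), and was 0.39 without replicate 2. EPZ-6438 (0.08 ± 0.06, adjusted p = 0.283) and forskolin (0.13 ± 0.06, adjusted p = 0.113) did not pass. Forskolin passed in a fit of only these 2 groups (adjusted p = 0.0218). PRI-724 was 1.17-fold above EPZ-6438 (adjusted p = 0.00838) and 1.13-fold above forskolin (adjusted p = 0.0229) with overlapping libraries, and the call against EPZ-6438 was lost without PRI-724 replicate 3 (adjusted p = 0.0512). The call against forskolin was lost without PRI-724 replicate 1 (0.109) or 3 (0.125) and without forskolin replicate 1 (0.0511) or 2 (0.0985).

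The balance of the receptors moved with the inhibitors. Per kilobase, NR1H3 made up 2.57%, 3.00% and 3.15% of the LXR transcripts in the baseline libraries and 2.75%, 2.45% and 3.16% with forskolin. It made up 1.51%, 1.15% and 1.39% with EPZ-6438 and 1.25%, 1.55% and 1.02% with PRI-724. All 6 inhibitor libraries were below the other 6. The share itself was not tested.

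ABCA1, which hands cholesterol and phospholipid to lipid-poor apolipoproteins (chr9:104781002-104928237, minus strand), rose with PRI-724. Its CPM were 12.1, 11.6 and 9.32 at baseline and 45.9, 42.9 and 37.8 with PRI-724, against 9.33, 8.97 and 8.94 with EPZ-6438 and 10.6, 10.9 and 9.86 with forskolin. The PRI-724 libraries were far above all others, and the baseline range overlapped that of EPZ-6438 and of forskolin. The rise over baseline was 3.81-fold (log2 fold change 1.93 ± 0.09 SE, adjusted p = 2.66e-13, and 1.90 without PRI-724 replicate 2). PRI-724 also lay above EPZ-6438 4.63-fold and above forskolin 4.01-fold (adjusted p = 1.44e-13 and 7.56e-14). EPZ-6438 was 1.22-fold lower than baseline (-0.28 ± 0.10, adjusted p = 0.02), a call lost without baseline replicate 1 (adjusted p = 0.0962), baseline replicate 2 (0.09) or EPZ-6438 replicate 3 (0.0519). Forskolin did not pass (-0.07 ± 0.10, adjusted p = 0.573).

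ABCG1, which moves cholesterol toward high-density lipoprotein (chr21:42199689-42297244, plus strand), had the widest range of the 7. Its CPM were 5.88, 5.67 and 5.41 at baseline, 6.39, 7.25 and 5.79 with EPZ-6438, 22.3, 21.8 and 21.5 with PRI-724 and 1.11, 0.621 and 0.583 with forskolin. The baseline and EPZ-6438 libraries overlapped, and the other groups lay wholly above and wholly below them. PRI-724 raised ABCG1 3.86-fold (log2 fold change 1.95 ± 0.10 SE, adjusted p = 2.24e-12, and 1.94 without PRI-724 replicate 2). Forskolin lowered it 7.25-fold (-2.86 ± 0.18, adjusted p = 3.45e-11), the 209th largest difference among the 20360 genes of that comparison. The forskolin value rests on 27, 15 and 13 counts, against 129, 153.5 and 115 at baseline. EPZ-6438 did not pass (0.20 ± 0.11, adjusted p = 0.149). Between PRI-724 and forskolin the difference was 28-fold (4.81 ± 0.15, adjusted p = 1.96e-16), and 5 of the 7 genes were higher with PRI-724 and 2 lower there (58.8% of all genes passed in that comparison, 29.3% higher and 29.5% lower).

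The ratio of the exporters held at its baseline range with PRI-724 and left it with forskolin. The ratio of ABCA1 to ABCG1 in CPM was 2.05, 2.05 and 1.72 in the baseline libraries and 2.06, 1.97 and 1.76 with PRI-724. It was 1.46, 1.24 and 1.54 with EPZ-6438, below every baseline library, and 9.59, 17.6 and 16.9 with forskolin, above all others.

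**Figure D2:**
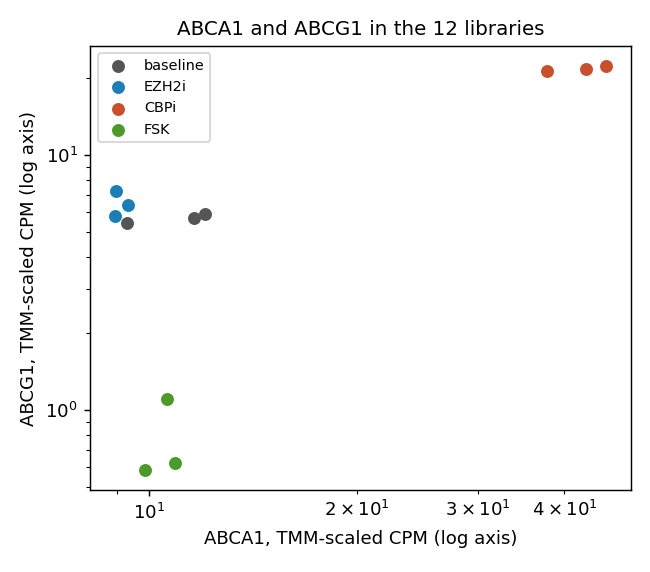
ABCG1 against ABCA1 in the 12 libraries, both in TMM-scaled CPM on log axes, coloured by group. The PRI-724 (CBPi) libraries are shifted up both axes, and the forskolin (FSK) libraries only down the ABCG1 axis, where they lie between 0.583 and 1.11 CPM.

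APOE, the apolipoprotein that accepts cholesterol from the exporters (chr19:44905754-44909393, plus strand), was the only one of the 7 that rose with forskolin. Its CPM were 2.05, 1.03 and 1.79 at baseline, 1.30, 1.52 and 1.39 with EPZ-6438, 1.45, 1.29 and 1.88 with PRI-724 and 2.84, 3.23 and 2.20 with forskolin. The forskolin libraries lay above all others, by a narrow margin over baseline replicate 1. The rise was 1.74-fold (log2 fold change 0.80 ± 0.22 SE, adjusted p = 0.00457), and it was lost without baseline replicate 2, the lowest library (0.52, adjusted p = 0.0506). With EPZ-6438 (-0.18 ± 0.24, adjusted p = 0.536) and PRI-724 (-0.03 ± 0.24, adjusted p = 0.931, and 0.08 without PRI-724 replicate 2) a change was not detectable at this depth of 27.5 to 53.5 counts per library.

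MYLIP, also called IDOL, marks lipoprotein receptors for degradation and so limits cholesterol uptake (chr6:16129125-16148248, plus strand). Its CPM were 10.2, 10.97 and 10.02 at baseline, 16.1, 15.7 and 14.96 with EPZ-6438, 19.3, 21.1 and 21.1 with PRI-724 and 5.18, 5.59 and 5.42 with forskolin. The 4 groups did not overlap anywhere, in the order forskolin, baseline, EPZ-6438, PRI-724. MYLIP rose 1.49-fold with EPZ-6438 (log2 fold change 0.58 ± 0.07 SE, adjusted p = 1.15e-06) and 1.97-fold with PRI-724 (0.98 ± 0.07, adjusted p = 5.58e-10, and 0.95 without PRI-724 replicate 2). It fell 1.93-fold with forskolin (-0.95 ± 0.09, adjusted p = 1.55e-08), and was 2.88-fold and 3.80-fold higher with EPZ-6438 and PRI-724 than with forskolin (adjusted p = 1.46e-12 and 3.51e-14). Each neighbouring pair in this order differed, since EPZ-6438 was below PRI-724 by 1.32-fold (-0.40 ± 0.07, adjusted p = 7.43e-05). In that direct comparison of the inhibitors 5 of the 7 genes were lower with EPZ-6438 and 0 higher (43.9% of all genes passed, 22.2% lower and 21.7% higher).

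LPCAT3, which loads polyunsaturated fatty acids onto membrane phospholipids (chr12:6976186-7018510, minus strand), fell with EPZ-6438 and, less, with forskolin. Its CPM were 35.7, 33.3 and 33.2 at baseline, 21.0, 21.8 and 20.9 with EPZ-6438, 35.6, 36.4 and 34.0 with PRI-724 and 26.4, 26.5 and 28.2 with forskolin. EPZ-6438 and forskolin each lay wholly below baseline, and PRI-724 overlapped it. The fall was 1.60-fold with EPZ-6438 (log2 fold change -0.68 ± 0.06 SE, adjusted p = 3.01e-09) and 1.26-fold with forskolin (-0.33 ± 0.06, adjusted p = 5.04e-05), and EPZ-6438 was lower than forskolin by 0.35 on the log2 scale (-0.35 ± 0.06, adjusted p = 2.58e-05). PRI-724 did not pass (0.05 ± 0.06, adjusted p = 0.423, and 0.02 without PRI-724 replicate 2). Between EPZ-6438 and forskolin, 2 of the 7 genes were higher with EPZ-6438 and 3 lower (61.6% of all genes passed, 30.3% higher and 31.3% lower).

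Of the annotated exon bases of LPCAT3, 65.6% are shared with EMG1 on the opposite strand, and the strand setting of the count is not given in the sources used here. EMG1, a ribosome biogenesis gene, was at 67.2 ± 2.9 CPM at baseline, 50.8 ± 2.3 with EPZ-6438, 59.3 ± 3.2 with PRI-724 and 79 ± 2.5 with forskolin. It fell with EPZ-6438 as LPCAT3 did (-0.40 ± 0.05) and rose with forskolin where LPCAT3 fell (0.24 ± 0.05). Its part in the LPCAT3 counts was not tested.

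**Figure D3:**
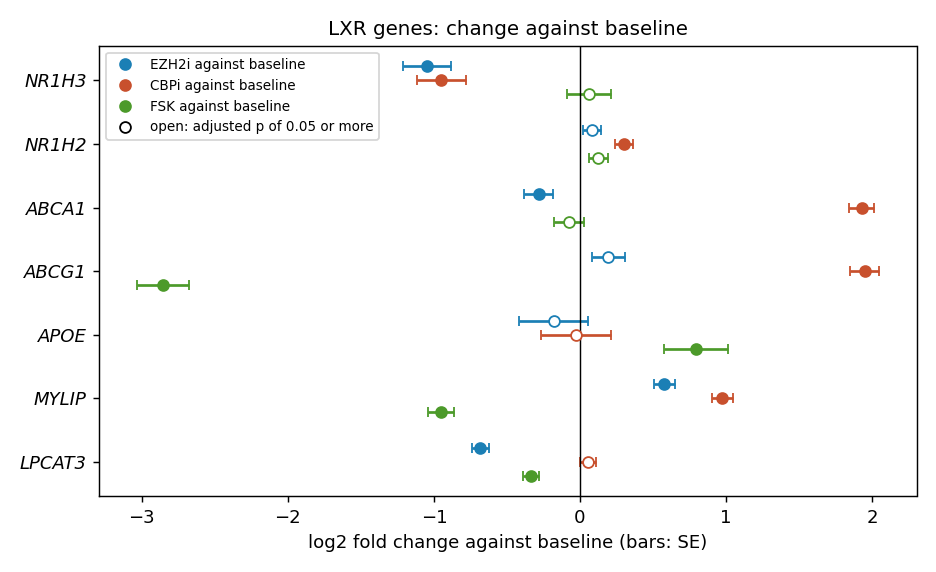
Log2 fold change of each gene against baseline (horizontal axis, bars are SE) with EPZ-6438 (EZH2i), PRI-724 (CBPi) and forskolin (FSK), with filled points for adjusted p under 0.05. ABCA1 and ABCG1 are at 1.93 and 1.95 with PRI-724, and ABCG1 is at -2.86 with forskolin. The 3 comparisons share the baseline libraries.

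Of 11 genes of partners and coregulators of the receptors, all tested, 6 rose and 2 fell with EPZ-6438, 6 rose and 3 fell with PRI-724, and 0 rose and 6 fell with forskolin. Their medians on the log2 scale were 0.19, 0.17 and -0.21. Among all genes tested, 29.5% rose and 28.3% fell with EPZ-6438, 29.8% and 29% with PRI-724, and 25.5% and 25.1% with forskolin. These shares are the background for this list and those below, which were chosen with earlier results of these data known. Without PRI-724 replicate 2, 4 rose and 3 fell with PRI-724, and 7 of the 11 had the same call. RXRA, an RXR gene, was at 82 ± 3 CPM at baseline and passed in all 3 comparisons, at 93.5 ± 2.6 with EPZ-6438, 68.7 ± 6.5 with PRI-724 and 70.8 ± 3.8 with forskolin. Its log2 fold change with PRI-724 was -0.26, and -0.19 without replicate 2. RXRB went from 63.4 ± 2.8 CPM to 81.4 ± 3.9, 71.3 ± 4.1 and 56.8 ± 0.5. Its calls were lost with PRI-724 without baseline replicate 1 (adjusted p = 0.0563) or PRI-724 replicate 2 (0.08), and with forskolin without baseline replicate 3 (0.0821) or forskolin replicate 1 (0.0506). RXRG was barely present, with 2 to 5 counts per baseline library, and rose to 21, 27 and 17 counts with EPZ-6438 (log2 fold change 2.26 ± 0.54 SE, adjusted p = 0.00121). The corepressor gene NCOR1 rose with PRI-724 (0.51), the coactivator gene NCOA2 rose with EPZ-6438 (0.48) and PRI-724 (0.37), and NCOA2 and NCOA1 fell with forskolin (-0.64 and -0.58). The histone deacetylase gene HDAC3 fell in all 3 comparisons (-0.43 with EPZ-6438, -0.47 with PRI-724 and -0.19 with forskolin).

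Other known LXR targets had a median above 0 with each inhibitor and below 0 with forskolin, with single genes going both ways. With EPZ-6438 the 7 members did not share that sign, at a median of -0.18. There ABCA1 was lower (-0.28, a call lost without some single libraries) and ABCG1 did not pass (0.20). Of 18 listed, 11 were tested, and 6 rose and 1 fell with EPZ-6438, 6 rose and 1 fell with PRI-724, and 3 rose and 6 fell with forskolin (medians 0.37, 0.26 and -0.24 on the log2 scale, against 0.02, 0.01 and 0.01 over all genes). The liver and gut targets ABCG5 and ABCG8 were among the 7 that were too low to test. Over all genes, 57.8% passed with EPZ-6438, 58.9% with PRI-724 and 50.6% with forskolin. SREBF1, the transcription factor gene through which LXRs drive fatty acid synthesis, was at 93.2, 85.8 and 87.8 CPM at baseline, 42.9, 43 and 43.7 with EPZ-6438, 79.8, 63.2 and 76.6 with PRI-724 and 27.7, 29.7 and 30.4 with forskolin. It lay below baseline in all 9 treated libraries, 2.06-fold with EPZ-6438, 1.22-fold with PRI-724 and 3.04-fold with forskolin, so with PRI-724 it fell where ABCA1 and ABCG1 rose. The log2 fold change with PRI-724 was -0.28, and -0.20 without replicate 2. Without that library 7 of the 11 targets rose and 1 fell.

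Other targets had the direction of MYLIP. MERTK, a receptor for the uptake of dying cells, went from 81.8 ± 0.93 CPM to 110.5 ± 3.4 with EPZ-6438 and 162 ± 5.5 with PRI-724, and down to 29.5 ± 0.53 with forskolin. RNF145, a ubiquitin ligase gene, went from 64.5 ± 1.4 CPM to 83.6 ± 2.7, 89.5 ± 1.4 and 41.4 ± 0.71. Both passed in all 3 comparisons. PLTP, the phospholipid transfer protein gene, rose with PRI-724 (0.42) and forskolin (0.78) and did not pass with EPZ-6438 (adjusted p = 0.936).

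VLDLR and LRP8, genes of receptors that the MYLIP protein degrades, were read beside MYLIP itself. VLDLR fell in all 3 comparisons, from 32.2 ± 1 CPM to 20.1 ± 0.65, 20.8 ± 0.57 and 4.47 ± 0.86, a 7.18-fold fall with forskolin. LRP8, the gene of an apolipoprotein E receptor, fell with forskolin alone among the 3 tests (8.36 ± 0.51 to 4.12 ± 0.38 CPM), and was at 8.07 ± 0.68 with EPZ-6438 and 8.07 ± 1.15 with PRI-724 (adjusted p = 0.726 and 0.715, and log2 fold change 0.05 with PRI-724 without its replicate 2). Protein was not measured, so receptor loss through MYLIP was not tested. Of the 7 genes in this list, which also holds its ubiquitin-conjugating partners and the deubiquitinase USP2, 1 rose and 4 fell with EPZ-6438, 0 rose and 3 fell with PRI-724, and 2 rose and 3 fell with forskolin. The shares of all genes that passed were 57.8%, 58.9% and 50.6%.

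**Figure D4:**
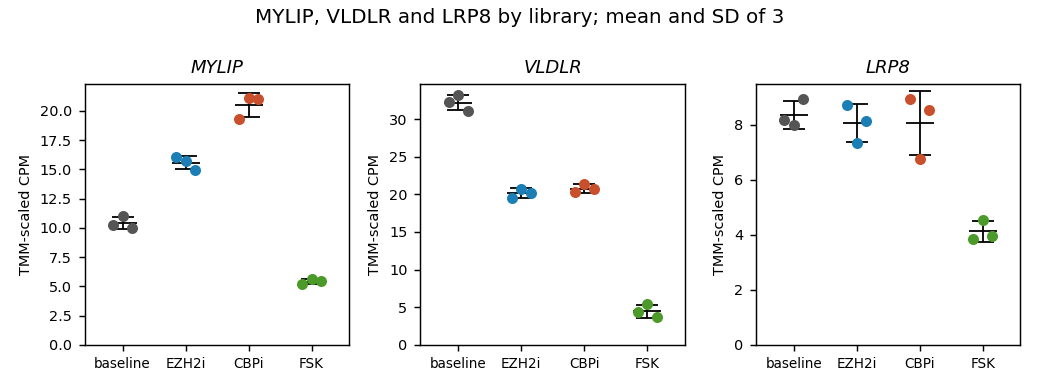
TMM-scaled CPM (linear axes from 0) of MYLIP, VLDLR and LRP8 in each library (points), with mean and SD of 3 (bars). All 3 genes are lowest with forskolin (FSK), where MYLIP lies at 5.18 to 5.59 CPM, and VLDLR is below baseline in every treated group.

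Genes of the sterol-regulated SREBP2 pathway, which makes cholesterol when sterol is scarce, fell with the inhibitors. Of 15 genes 14 were tested, and 0 rose and 11 fell with EPZ-6438, 1 rose and 13 fell with PRI-724, and 6 rose and 2 fell with forskolin (medians -0.31, -0.63 and 0.01 on the log2 scale). In the same comparisons 57.8%, 58.9% and 50.6% of all genes passed. IDI1, an isoprenoid enzyme gene, went from 72.2 ± 2.2 CPM to 38.4 ± 0.74 with EPZ-6438 and 27.4 ± 1.2 with PRI-724, and FDFT1, the squalene synthase gene, from 141 ± 5.2 CPM to 90.8 ± 2.5 and 58.5 ± 2.6. DHCR7, of the last step of synthesis, fell from 149 ± 7.5 to 87.2 ± 1.2 CPM with EPZ-6438 and rose to 267 ± 8.7 CPM with forskolin.

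Enzymes that make or clear oxysterols, the LXR ligands, fell with the inhibitors where they changed. Of 9 listed, 8 were tested. With EPZ-6438 0 rose and 5 fell, with PRI-724 0 rose and 5 fell, and with forskolin 4 rose and 4 fell (medians -0.50, -0.67 and -0.16 on the log2 scale). The shares over all genes that passed were 57.8%, 58.9% and 50.6%. Without PRI-724 replicate 2, 4 fell with PRI-724. CH25H, which makes 25-hydroxycholesterol, was not detected at baseline and was too low to test. CYP46A1, which makes 24-hydroxycholesterol, went from 9.54 ± 1.2 CPM to 6.17 ± 0.49, 4.10 ± 0.4 and 6.14 ± 0.17 and passed in all 3 comparisons. CYP11A1, whose reaction passes through hydroxycholesterols, fell with EPZ-6438 (log2 fold change -2.62) and PRI-724 (-2.25) and rose with forskolin (0.24). SULT2B1, which sulfates cholesterol and oxysterols, was at 1.27 ± 0.13 CPM at baseline, 0.635 ± 0.12 with EPZ-6438, 0.680 ± 0.22 with PRI-724 and 0.115 ± 0.069 with forskolin. It passed in all 3 comparisons, with 3, 1 and 4 counts behind the forskolin level, and its PRI-724 call was lost without PRI-724 replicate 2 (adjusted p = 0.0529).

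Among 21 genes of cholesterol transport and storage, 20 of them tested, 5 rose and 9 fell with EPZ-6438, 9 rose and 6 fell with PRI-724, and 11 rose and 4 fell with forskolin (medians -0.18, 0.13 and 0.21 on the log2 scale). Without PRI-724 replicate 2, 7 rose and 6 fell with PRI-724. In the fits with all libraries, 57.8% of all genes passed with EPZ-6438, 58.9% with PRI-724 and 50.6% with forskolin. SCARB1, SOAT1 and GRAMD1B were lower with both inhibitors and higher with forskolin. SCARB1, the receptor for high-density lipoprotein, went from 1840 ± 81 CPM to 1213 ± 8.05 with EPZ-6438, 1041 ± 58.1 with PRI-724 and 5150 ± 89 with forskolin. SOAT1, which esterifies cholesterol for storage, went from 279 ± 2.4 CPM to 103 ± 1, 144 ± 4.9 and 522 ± 22, and GRAMD1B, which carries cholesterol from the plasma membrane, from 328 ± 21 CPM to 144 ± 4.6, 104 ± 3.6 and 1119 ± 25.8. APOA1, the lipid acceptor for ABCA1, was at 2.71 ± 0.89 CPM at baseline and fell in all 3 comparisons, to 0.282 ± 0.22, 0.333 ± 0.055 and 1.32 ± 0.14. Its levels rest on 7, 16 and 3 counts with EPZ-6438 and 8, 8 and 8.5 with PRI-724. ABCG4, a close relative of ABCG1, rose with EPZ-6438 from 0.238 ± 0.18 to 0.950 ± 0.12 CPM, with 9, 7 and 1 counts behind the baseline level.

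Of 8 lysophospholipid acyltransferase genes, all tested, 3 rose and 2 fell with EPZ-6438, 3 rose and 3 fell with PRI-724, and 1 rose and 5 fell with forskolin (medians 0.07, 0.09 and -0.29 on the log2 scale). Over all genes tested 57.8%, 58.9% and 50.6% passed in these comparisons. MBOAT2 rose with EPZ-6438 (0.70) where LPCAT3 fell, and fell with forskolin (-1.07). AGPAT3 fell in all 3 comparisons (-0.29, -0.54 and -0.36). In this list, the SREBP2 pathway and the MYLIP list, every call with PRI-724 was the same without its replicate 2.

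**Figure D5:**
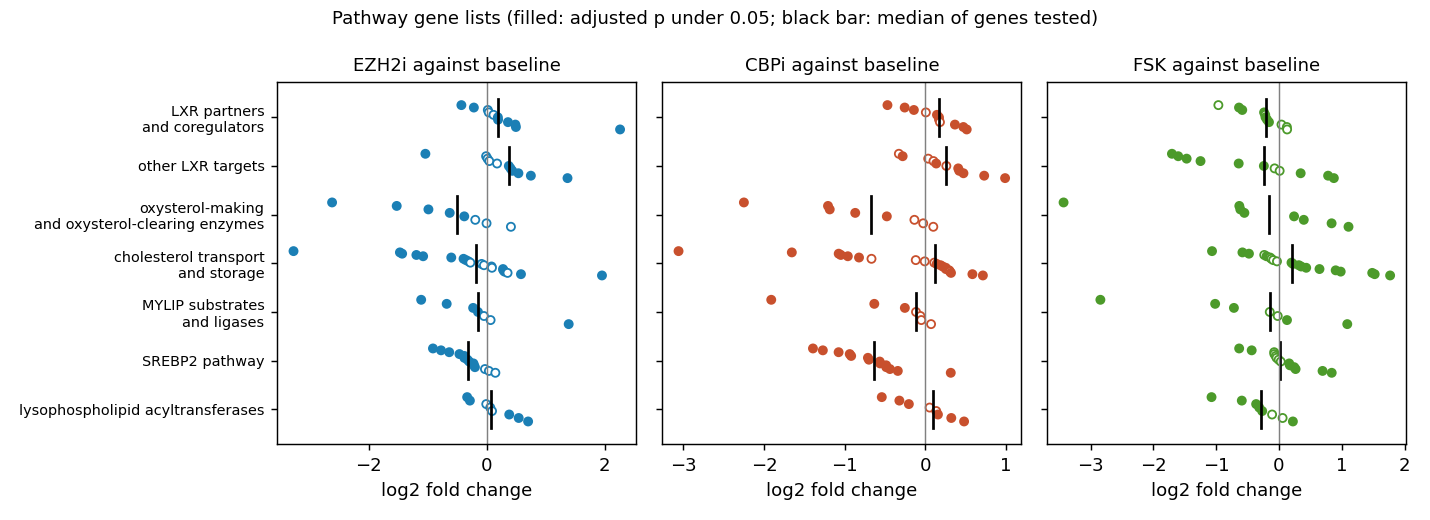
Log2 fold change against baseline (horizontal axes) of the genes tested in 7 pathway lists, 1 point per gene, filled where adjusted p was under 0.05, with the list median as a black bar. The SREBP2 pathway lies below 0 with PRI-724 (CBPi) apart from INSIG2, median -0.63, and is centred near 0 with forskolin (FSK), median 0.01.

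The genes whose pattern was most like that of a member were taken as the 3 with the smallest root mean square difference over the 12 libraries, in log2 CPM centred on the baseline mean, among 14858 genes. For ABCA1 these were TSC22D3, a glucocorticoid-induced leucine zipper gene (difference 0.263), PCDHGA4 (0.445) and MT-ND3 (0.445). TSC22D3 was at 44.8 ± 2 CPM at baseline, 43.2 ± 0.99 with EPZ-6438, 153 ± 3.6 with PRI-724 and 33.1 ± 0.78 with forskolin. For MYLIP they were YPEL1 (0.127), MAPT (0.141), the tau gene, and CILK1 (0.145), and for ABCG1 ADGRA2 (0.617), COL4A4 (0.631) and SYT11 (0.66), a looser match. SYT11 fell to 0.918 ± 0.12 CPM with forskolin from 5.35 ± 0.26 CPM and was at 9.72 ± 0.32 CPM with PRI-724. For NR1H3 3 entries tied at 0.147, MIR7703 and a pair with no symbol. The 12 libraries share 4 groups, and the likeness is a description.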

How the data were processed

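The members and gene lists were chosen with earlier results of these data known. The authors deposited estimated counts per gene, fractional where a read was shared (65.6% of non-zero values are whole within 1e-06), with a gene length in bases as another deposited column. The submitters' processing notes name STAR and featureCounts, and the strand and multimapping settings and the annotation release were not stated in those sources. Counts were rounded, filtered with filterByExpr, scaled by TMM and fitted in 1 model of 12 libraries with edgeR 4.0.16 (glmQLFit, robust, and glmQLFTest, R 4.3.3), with 6 contrasts and Benjamini-Hochberg adjustment over 20360 genes at 0.05. SE is the absolute log2 fold change over the square root of the F statistic. The fit was tested on simulated counts. All 7 members are named, and from each list up to 4 genes per comparison with the greatest fold change and no library overlap, plus SREBF1, VLDLR, LRP8, RXRA and RXRB always. Some genes that the rule names are not reported here. A gene so named may be given in every comparison. Replicates are cultures of 1 line, so p-values measure the spread between those cultures. Alternatives were DESeq2 1.42.0, limma voom 3.58.1, other scalings and filters, only the groups compared, and leaving out each library.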

Additional observations from a re-analysis of the deposited data

How the results depend on the processing

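No paired analysis was possible because the labels give no replicate numbers. Counts of members called stayed within 1.5 times under the alternatives run, apart from members higher with forskolin, which was 2 with only the groups compared and 0 to 1 when leaving out each library (0 without baseline replicate 2). NR1H2 per kilobase was 39.5 CPM with the GENCODE 29 exon length, an alternative chosen after seeing the data. Scaling by library size alone moved the share of forskolin calls that were higher from 50.5% to 39.7%. Signs turned only for differences that passed in neither fit. These were APOE with PRI-724 under limma voom (0.0274), and under library size alone NR1H3 with forskolin (-0.008) and NR1H2 between EPZ-6438 and forskolin (0.0484). Leaving out 1 library, the log2 fold change of APOE ranged from -0.4566 to 0.0268 with EPZ-6438, from -0.3037 to 0.1797 with PRI-724 and from -0.2673 to 0.0381 between the inhibitors. LRP8 ranged from -0.1083 to 0.0131 with EPZ-6438 and from -0.1203 to 0.0499 with PRI-724, and NR1H3 with forskolin from -0.0639 to 0.1739. The cause was not tested. Of the calls between treatments, NR1H2 between PRI-724 and forskolin was lost with only those groups (adjusted p = 0.0682) and without PRI-724 replicate 1 (0.109) or 3 (0.125) or forskolin replicate 1 (0.0511) or 2 (0.0985), and between the inhibitors without PRI-724 replicate 3 (0.0512). ABCA1 between EPZ-6438 and forskolin passed with only those groups (0.0346). Depth limits ABCG1 with forskolin (13 to 27 counts per library), APOE (27.5 to 78.5) and NR1H3 (43 to 103).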
